A study of Mus musculus with 10 samples.

Results

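The 38 genes described here encode proteins that copy DNA. They were taken as a named list from the replication machinery and found by symbol, with Ensembl identifiers placed by GENCODE M21 (GRCm38), among the 30460 genes listed for each library. They fall into 9 roles: the MCM helicase, origin licensing, helicase activation, the sliding clamp and its loader, polymerases and primase, single-strand binding, Okazaki fragment joining, nucleotide supply, and histone mRNA binding. RNA was sequenced from cultured mouse embryonic stem cells, the pluripotent cells of the early embryo, all of the C57BL/6 strain. There were 3 libraries of wild type cells, 3 labelled Mga-/-, 2 labelled L3mbtl2-/- and 2 labelled Pcgf6-/-, and each knockout was compared with the same 3 wild type libraries and with the other knockouts. No treatment or time point is named for any group. The sources used here do not give how each knockout was made, whether it is 1 clone or several, or whether replicates were grown apart. The p-values therefore cover the spread between these libraries alone, which may be technical. Levels are FPKM, reads scaled to gene length and library depth. Comparison between genes is limited where exons of other genes overlap, and that between libraries moved with the scaling, as given below. The library kit named in the labels, NEBNext Ultra, does not mark strand.

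As background, replication starts from origins marked by the origin recognition complex. CDC6 and CDT1 load the ring of MCM2 to MCM7 there before S phase, geminin holds CDT1 back, and CDC45 with the GINS complex turns the loaded ring into a moving helicase with the help of MCM10. Primase and polymerase alpha make the primers, PCNA loaded by RFC tethers the copying polymerases, RPA coats single strands, FEN1 and LIG1 join the Okazaki fragments, and ribonucleotide reductase and thymidylate synthase supply the nucleotides. Embryonic stem cells divide fast and spend much of their cycle in S phase. MGA, L3MBTL2 and PCGF6 are subunits of the Polycomb complex PRC1.6, which reaches promoters through E2F sites (E2F6 with a DP partner) and through E-boxes (MGA with MAX), and E2F proteins are the classic regulators of replication genes.

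Promoter letters are shown because both kinds of site lie in front of replication genes. RefSeq windows of 250 bases before to 50 bases after each start (GRCm38.p6) were found for 30 of the 38 genes. They were searched on both strands for the E2F letters TTTCCCGC, TTTCGCGC, TTTGCCGC and TTTGGCGC, for the E-box CACGTG and for the CCAAT box CCAAT. An E2F match stood in 12 of the 30 (40%), against 4.70% of the 10904 tested genes with a window. An E-box stood in 6 (20%, against 11.8%) and a CCAAT box in 21 (70%, against 43.1%). The bases before the start that lie in no GENCODE exon are printed for 6 genes whose results stand out below, 5′ to 3′, with E2F and E-box letters in capitals. Mcm5 at chr8:75109259-75109508 (plus strand) and Mcm6 at chr1:128359706-128359955 (minus strand) hold E2F letters, and Rfc1 at chr5:65335671-65335889 (minus strand) holds an E-box. Cdt1 at chr8:122567765-122568014 (plus strand) has its E2F letters after the start, from base 32 counted from the start as 0. Rpa2 at chr4:132768110-132768331 (plus strand) and Rrm2 at chr12:24708004-24708240 (plus strand) hold neither.
Mcm5: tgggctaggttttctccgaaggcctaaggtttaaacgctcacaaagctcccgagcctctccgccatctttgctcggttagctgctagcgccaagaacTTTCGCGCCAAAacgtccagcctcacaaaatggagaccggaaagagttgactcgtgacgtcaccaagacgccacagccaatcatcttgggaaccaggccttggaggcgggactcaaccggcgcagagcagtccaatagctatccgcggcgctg
Mcm6: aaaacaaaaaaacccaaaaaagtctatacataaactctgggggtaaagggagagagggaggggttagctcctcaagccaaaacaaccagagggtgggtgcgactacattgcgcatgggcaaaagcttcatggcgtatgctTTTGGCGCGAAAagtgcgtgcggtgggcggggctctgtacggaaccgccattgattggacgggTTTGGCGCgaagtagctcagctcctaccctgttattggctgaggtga
Rfc1: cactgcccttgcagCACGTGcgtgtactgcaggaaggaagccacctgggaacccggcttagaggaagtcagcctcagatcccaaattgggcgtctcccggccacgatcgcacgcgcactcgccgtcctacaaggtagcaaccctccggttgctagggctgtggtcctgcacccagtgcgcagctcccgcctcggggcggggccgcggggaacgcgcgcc
Cdt1: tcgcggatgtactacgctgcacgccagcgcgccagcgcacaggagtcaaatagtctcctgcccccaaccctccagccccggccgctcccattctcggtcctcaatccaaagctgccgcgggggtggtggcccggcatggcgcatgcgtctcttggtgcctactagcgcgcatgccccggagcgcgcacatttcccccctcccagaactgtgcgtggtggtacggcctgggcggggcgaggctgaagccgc
Rpa2: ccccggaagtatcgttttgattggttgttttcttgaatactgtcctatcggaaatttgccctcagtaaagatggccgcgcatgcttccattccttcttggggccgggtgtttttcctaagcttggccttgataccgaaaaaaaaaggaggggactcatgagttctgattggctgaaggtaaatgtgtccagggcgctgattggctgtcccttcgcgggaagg
Rrm2: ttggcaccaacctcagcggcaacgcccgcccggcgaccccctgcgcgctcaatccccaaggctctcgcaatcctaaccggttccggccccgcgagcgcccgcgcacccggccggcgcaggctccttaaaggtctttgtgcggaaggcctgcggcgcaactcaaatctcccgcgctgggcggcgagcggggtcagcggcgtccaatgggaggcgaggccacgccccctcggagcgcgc
In Mcm5 the capitals are matches on both strands that overlap, as are the first capitals of Mcm6. The E2F match of Gins3, 41 bases before its start, lies inside a GENCODE exon, and that of Cdc6 lies 138 bases before its start. The E-box of Rpa1, 68 bases before its start, lies in an exon of the divergent gene Smyd4. Genes with the same letters moved in different directions. Among genes with a window, E2F letters stood in that of 3 of the 5 that rose and 2 of the 4 that fell in Mga knockout, and of 4 of 5 and 4 of 7 in L3mbtl2 knockout. Among those that did not pass, they stood in 7 of 21 (Mga knockout) and 4 of 18 (L3mbtl2 knockout). Counting only matches that begin before the start, these were 3 of 5 and 1 of 4 (Cdc6) in Mga knockout, and 4 of 5 and 1 of 7 (Mcm7) in L3mbtl2 knockout, since those of Cdt1, Mcm3 and Pold1 begin after it. Of the genes that did not pass, 4 of 21 and 3 of 18 held such a match. Some genes have more than 1 start and window. A match in any window counted in the totals, while positions were taken from the first window. The match of Mcm7 before its start lies in its first window, inside GENCODE exons, and its other window held 0 E2F matches. The calls of Mcm6 and Cdc6 in both knockouts were lost once centred on the chromosome, as given below. These counts are small and were not tested. A match is a string of letters, not a measured binding site.

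The targeted genes and markers of other cells were read first. Mga itself was 19.7, 18.6 and 17.1 FPKM in wild type and 8.03, 19.6 and 11.2 in libraries labelled Mga knockout (log2 fold change -0.61 ± 0.26, limma adjusted p = 0.0987). The library labelled Mga knockout replicate 2 thus lay at the wild type level, and its Mga RNA does not show the loss that its label names. How the knockout was made is not given, so this level alone cannot tell whether the gene is intact there. L3mbtl2 fell from 19.8, 20.5 and 20.3 to 3.72 and 3.49 FPKM in its own knockout (log2 fold change -2.45 ± 0.16, limma adjusted p = 3.24e-05) and Pcgf6 from 29.4, 29.7 and 27.6 to 9.56 and 9.82 (log2 fold change -1.56 ± 0.07, limma adjusted p = 2.8e-05). The 10 embryonic stem cell markers summed to 2472 to 2674 FPKM in wild type and to 3455 to 4277 in the knockout libraries. The 10 fibroblast (feeder cell) markers summed to 611 FPKM in replicate 1 labelled Mga knockout and to 169 to 261 in the other libraries. In that replicate, 17 of the 38 replication genes were lower than in any other library, against 2 and 1 in replicates 2 and 3. The share of all tested genes that were lowest in each library is not given. These counts are therefore not read as a result about replication genes. The 10 macrophage markers summed to 147 to 154 FPKM in wild type, 9.21 to 32.5 in libraries labelled Mga knockout, 393 to 407 (L3mbtl2 knockout) and 199 to 203 (Pcgf6 knockout). Of these, 3 were listed at 0 in each of the libraries labelled Mga knockout replicates 2 and 3, Tyrobp and C1qb in both. The 10 primitive endoderm markers summed to 6.16 to 7.14 FPKM in wild type, 8.08 to 17.9 in libraries labelled Mga knockout, 15.4 to 15.98 (L3mbtl2 knockout) and 18.4 to 18.5 (Pcgf6 knockout). The part of these other cells in the results was not tested, and in bulk RNA fewer cells of a type cannot be told apart from less RNA per cell. The libraries held 19370097 to 26726692 reads. The replication genes varied most among the libraries labelled Mga knockout, with a median SD of 0.22 (log2) against 0.03 (wild type), 0.03 (L3mbtl2 knockout) and 0.03 (Pcgf6 knockout), and the fit of all 10 libraries pools these spreads.

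All 38 genes reached 0.5 FPKM in 2 or more libraries, the filter that left 15731 genes in all to test. The genes did not move as a block in any knockout: rises and falls stood side by side, often inside 1 complex. In Mga knockout 6 of the 38 rose and 6 fell against wild type by limma at a Benjamini-Hochberg adjusted p under 0.05 (31.6% called, against 39.5% of all genes tested, where 22.8% rose and 16.7% fell). Mcm5, Rpa2, Gins3, Prim2, Mcm6 and Mcm2 rose, and Mcm10, Cdt1, Rfc1, Cdc6, Mcm4 and Gins4 fell. In L3mbtl2 knockout 6 rose (Mcm6, Prim2, Gins3, Slbp, Orc1 and Cdc6) and 8 fell (Rrm2, Cdt1, Pold1, Mcm10, Gins1, Mcm7, Mcm3 and Rfc5), 36.8% against 40% of all genes (23.4% up and 16.7% down). In Pcgf6 knockout Pcna rose and Rpa1 fell, 5.26% against 10.1% (5.45% up and 4.62% down). The shares in Mga and L3mbtl2 knockout were near those of all genes, and in Pcgf6 knockout the count was below the background share. The median log2 fold change of the 38 was -0.01 (Mga), 0.01 (L3mbtl2) and 0.07 (Pcgf6 knockout), beside 0.10, 0.13 and 0.04 over all tested genes. The knockout libraries did not overlap with wild type at 19, 32 and 26 of the 38 genes, against 48.7%, 79.5% and 65.5% of all tested genes.

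**Figure D1:**
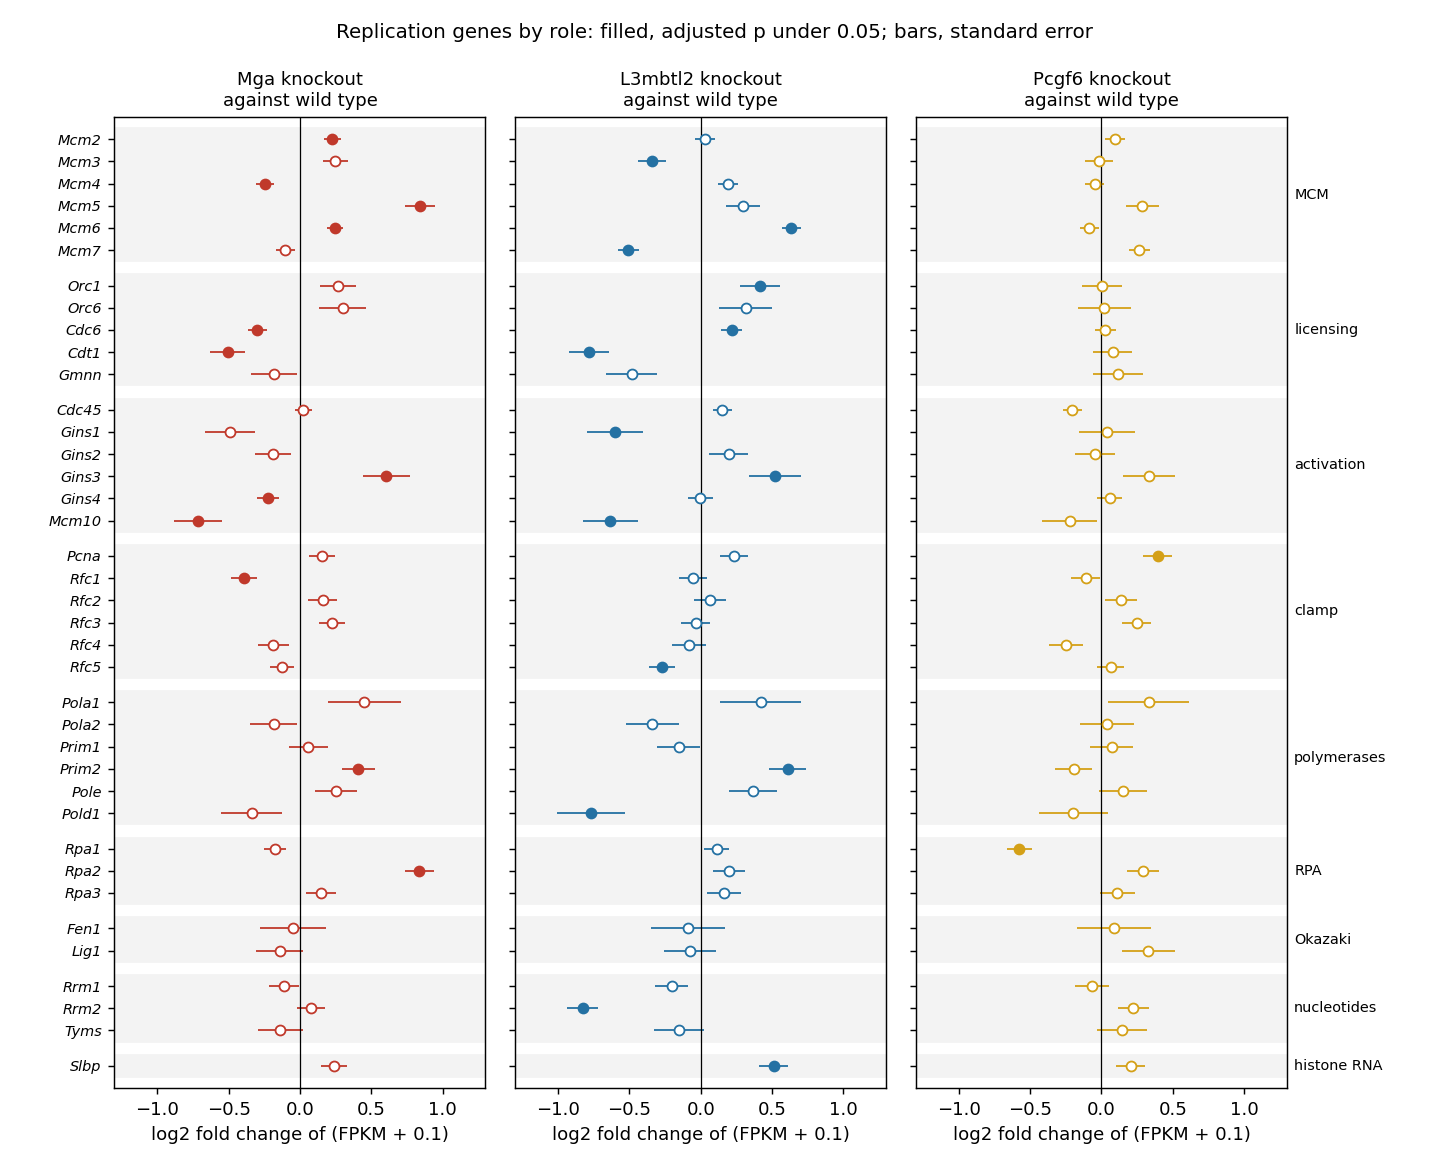
Log2 fold change of FPKM + 0.1 (x axis) of the 38 replication genes (y axis, grouped by role) in each knockout against wild type, with bars for the limma standard error and filled points for an adjusted p under 0.05. Filled points lie on both sides of 0 in Mga knockout (6 and 6) and L3mbtl2 knockout (6 and 8), and only Pcna and Rpa1 are filled in Pcgf6 knockout.

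These counts depended on the libraries used. Of the calls, Mcm5, Rpa2, Mcm10, Cdt1 and Rfc1 in Mga knockout and Cdt1, Mcm7, Rrm2 and Slbp in L3mbtl2 knockout passed under every alternative tried. Without a wild type replicate, 7 to 8 genes passed in Mga knockout. Leaving out replicate 1, 2 or 3 of those labelled Mga knockout, 20 (14 rose and 6 fell), 15 and 13 passed. In L3mbtl2 knockout 5 to 8 passed without any 1 library of wild type, L3mbtl2 knockout or Pcgf6 knockout, and 22, 22 and 15 with replicate 1, 2 or 3 labelled Mga knockout left out. In Pcgf6 knockout 0 passed by limma without either of its own libraries (3 at an unadjusted p under 0.05), 8 with replicate 1 or 2 labelled Mga knockout left out, and 1 to 3 without any other 1 library. The share of all tested genes is not given for the fits that leave out a library. Their counts therefore have no background beside them and are not read as results about replication genes. Fitting only the groups compared gave 6 genes in Mga knockout (background 25.4%), 30 in that of L3mbtl2 (67.3%) and 20 in that of Pcgf6 (43.7%).

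Of the 6 subunits of the MCM helicase, the ring that opens the double helix, 3 rose and 1 fell in Mga knockout and 1 rose and 2 fell in L3mbtl2 knockout. In Pcgf6 knockout 0 passed by limma (2 at an unadjusted p under 0.05). Mcm5 measured 109, 112 and 113 FPKM (wild type), 166, 218 and 219 (labelled Mga knockout), 133 and 141 (L3mbtl2 knockout) and 135 and 137 (Pcgf6 knockout). Every library labelled Mga knockout was above all other libraries, and the rise was with that of Rpa2 the largest among the 38 genes there (log2 fold change 0.84 ± 0.11, limma adjusted p = 0.000606). In L3mbtl2 and Pcgf6 knockout Mcm5 also lay above wild type without passing the test (log2 fold change 0.30 and 0.29, limma adjusted p = 0.0737 and 0.162). Mcm6 measured 77.2, 76.01 and 76.5 FPKM (wild type), 95.98, 89.1 and 87.7 (labelled Mga knockout), 121 and 117 (L3mbtl2 knockout) and 73.3 and 71.2 (Pcgf6 knockout). Its highest libraries were those of L3mbtl2 knockout, where it rose (log2 fold change 0.63 ± 0.07, limma adjusted p = 0.000273), and it rose in Mga knockout (log2 fold change 0.25 ± 0.06, limma adjusted p = 0.0112; 0.05008 without wild type replicate 2). Mcm6 lies on chromosome 1, and centred on the median of its chromosome these values turned to -0.16 and -0.073 (limma adjusted p = 0.353 and 0.646). Between these knockouts Mcm6 also differed (log2 fold change -0.39 ± 0.07, limma adjusted p = 0.00411 for Mga against L3mbtl2 knockout). Mcm2, the subunit that also carries a histone-binding tail, rose slightly in Mga knockout (log2 fold change 0.23 ± 0.06, limma adjusted p = 0.0197; 0.0508 to 0.0776 without any 1 wild type library), from 73.7, 73.1 and 75.5 FPKM to 91.5, 81.2 and 88.04.

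The other 3 subunits fell in at least 1 knockout. Mcm3 measured 129, 131 and 128 FPKM (wild type), 177, 144 and 141 (labelled Mga knockout), 102 and 102 (L3mbtl2 knockout) and 129.8 and 126 (Pcgf6 knockout). It fell in L3mbtl2 knockout alone among the comparisons with wild type (log2 fold change -0.34 ± 0.10, limma adjusted p = 0.0241; 0.0597 to 0.119 without any 1 wild type or L3mbtl2 knockout library). In Mga knockout its value was above wild type (log2 fold change 0.25 ± 0.09, limma adjusted p = 0.0534), highest in replicate 1. Mcm7 measured 120.0, 120.1 and 124 FPKM (wild type), 104, 119 and 116 (labelled Mga knockout), 84.5 and 85.98 (L3mbtl2 knockout) and 147 and 144 (Pcgf6 knockout). It was lowest in L3mbtl2 knockout, where it fell (log2 fold change -0.51 ± 0.07, limma adjusted p = 0.00119), and highest in Pcgf6 knockout, where the difference did not pass (log2 fold change 0.27 ± 0.07, limma adjusted p = 0.0558). Mcm4 measured 102, 99.8 and 99.1 FPKM (wild type), 78.9, 89.3 and 85.3 (labelled Mga knockout), 115 and 114 (L3mbtl2 knockout) and 97.1 and 96.8 (Pcgf6 knockout). All libraries labelled Mga knockout lay below all others and Mcm4 fell (log2 fold change -0.25 ± 0.06, limma adjusted p = 0.014; 0.052 and 0.0536 without wild type replicate 1 or 2). In L3mbtl2 knockout it lay above wild type without passing (log2 fold change 0.19 ± 0.07, limma adjusted p = 0.0572). The 6 subunits summed to 610.4 to 616 FPKM in wild type, 714 to 742 in libraries labelled Mga knockout, 631 to 634 (L3mbtl2 knockout) and 654 to 661 (Pcgf6 knockout). The highest subunit stood 1.69 to 1.79 times above the lowest in wild type and 1.75 to 1.87 times in L3mbtl2 knockout, against 2.25 to 2.69 times in libraries labelled Mga knockout and 2.01 to 2.03 times in Pcgf6 knockout. Mcm3 was the highest subunit in wild type and in replicate 1 labelled Mga knockout, Mcm5 in the other libraries labelled Mga knockout and in L3mbtl2 knockout, and Mcm7 in Pcgf6 knockout.

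**Figure D2:**
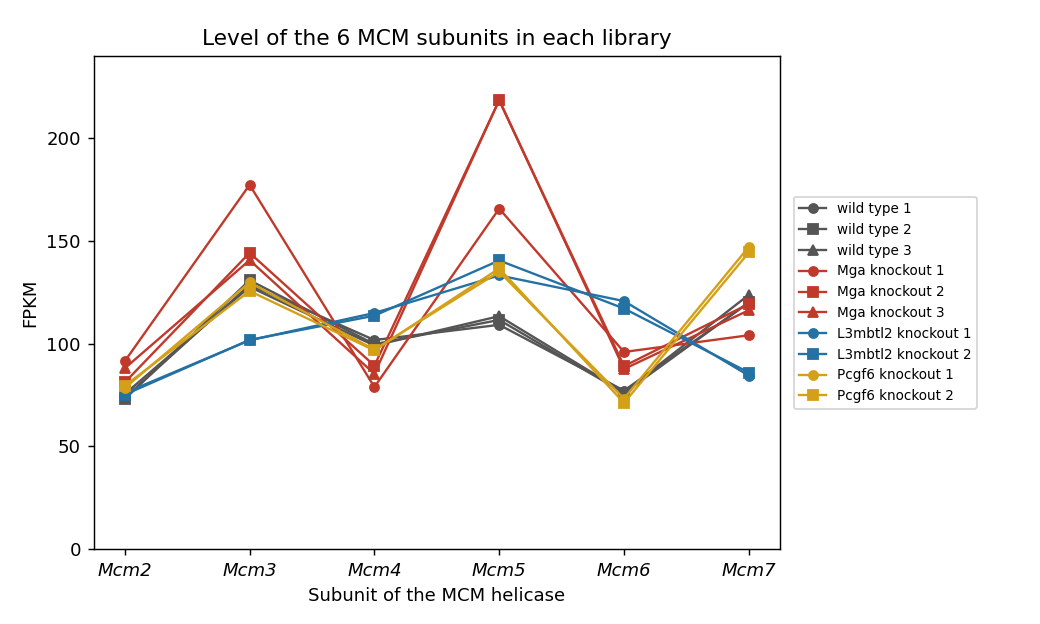
FPKM (y axis) of the 6 MCM subunits (x axis), with 1 line per library, coloured by genotype and marked by replicate. The wild type lines lie on each other, Mcm5 peaks at 166 to 219 FPKM in libraries labelled Mga knockout, and L3mbtl2 knockout is lowest at Mcm3 and Mcm7 and highest at Mcm6.

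Of the 5 licensing genes, 2 fell in Mga knockout, 2 rose and 1 fell in L3mbtl2 knockout, and 0 passed by limma in Pcgf6 knockout (0 at an unadjusted p under 0.05). Cdt1, the factor that brings MCM to origins, was lower in 2 knockouts. Cdt1 measured 103, 107 and 114 FPKM (wild type), 62.1, 90.7 and 78.1 (labelled Mga knockout), 62.8 and 62.7 (L3mbtl2 knockout) and 113 and 116 (Pcgf6 knockout). Every library labelled Mga knockout and both of L3mbtl2 knockout lay below every wild type library, and Pcgf6 knockout overlapped with it. Cdt1 fell in Mga knockout (log2 fold change -0.51 ± 0.12, limma adjusted p = 0.0121) and in L3mbtl2 knockout (log2 fold change -0.78 ± 0.14, limma adjusted p = 0.00285), and in Pcgf6 knockout it did not pass (95% interval -0.23 to 0.39 on the log2 scale, limma adjusted p = 0.774). Cdc6 measured 22.7, 22.3 and 22.9 FPKM (wild type), 19.1, 17.3 and 18.8 (labelled Mga knockout), 25.6 and 27.1 (L3mbtl2 knockout) and 22.99 and 23.1 (Pcgf6 knockout). Cdc6, the other loader of the ring, went in opposite directions: it fell in Mga knockout (log2 fold change -0.30 ± 0.07, limma adjusted p = 0.00902) and rose in L3mbtl2 knockout (log2 fold change 0.22 ± 0.08, limma adjusted p = 0.048; 0.0822 to 0.26 without any 1 library not labelled Mga knockout).

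Orc1, the largest subunit of the origin recognition complex, was 12.8, 11.6 and 11.8 FPKM in wild type and 16.8 and 15.3 in L3mbtl2 knockout, where it rose (log2 fold change 0.41 ± 0.14, limma adjusted p = 0.0442; 0.0663 to 0.225 without any 1 library not labelled Mga knockout). The libraries labelled Mga knockout held 12.04, 14.9 and 17.05, overlapping with wild type. Orc6, the smallest subunit, passed in no comparison with wild type, and its libraries labelled Mga knockout spread from 42.1 to 71.3 FPKM around a wild type level of 47.1, 46.3 and 46.4. Gmnn, which encodes geminin, the inhibitor of CDT1, was 41.6, 41.5 and 40.8 FPKM in wild type and 31.5 and 27.7 in L3mbtl2 knockout. The groups did not overlap, and the difference did not pass (log2 fold change -0.48 ± 0.18, limma adjusted p = 0.0576).

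Of the 6 helicase activation genes, 1 rose and 2 fell in Mga knockout, 1 rose and 2 fell in L3mbtl2 knockout, and 0 passed by limma in Pcgf6 knockout (1 at an unadjusted p under 0.05). Mcm10 encodes a factor that the activated helicase needs to move. Mcm10 measured 28.5, 28.2 and 29.2 FPKM (wild type), 15.5, 23.9 and 14.2 (labelled Mga knockout), 18.5 and 18.3 (L3mbtl2 knockout) and 25.5 and 23.5 (Pcgf6 knockout). The libraries labelled Mga knockout and those of L3mbtl2 knockout were all below every wild type library. Mcm10 fell in Mga knockout (log2 fold change -0.71 ± 0.17, limma adjusted p = 0.0112) and in L3mbtl2 knockout (log2 fold change -0.63 ± 0.19, limma adjusted p = 0.028; 0.0652 to 0.126 without any 1 wild type or L3mbtl2 knockout library). Gins1 measured 19.7, 19.7 and 18.02 FPKM (wild type), 10.03, 17.4 and 14.4 (labelled Mga knockout), 12.6 and 12.6 (L3mbtl2 knockout) and 20.6 and 18.7 (Pcgf6 knockout). Gins1, which encodes the PSF1 subunit of GINS, fell in L3mbtl2 knockout (log2 fold change -0.60 ± 0.19, limma adjusted p = 0.0365; 0.0561 to 0.146 without any 1 library not labelled Mga knockout) and just missed the threshold in Mga knockout (log2 fold change -0.49 ± 0.17, limma adjusted p = 0.0513).

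Gins3 measured 4.30, 5.29 and 4.25 FPKM (wild type), 5.58, 7.24 and 8.59 (labelled Mga knockout), 6.22 and 7.07 (L3mbtl2 knockout) and 5.91 and 5.69 (Pcgf6 knockout). Gins3, which encodes PSF3, was above all wild type libraries in every knockout library, by a small margin in replicate 1 labelled Mga knockout. It rose in Mga knockout (log2 fold change 0.60 ± 0.16, limma adjusted p = 0.0191; 0.0502 to 0.0703 without wild type replicate 1 or 3 or without the library labelled Mga knockout replicate 3) and, at the edge of the threshold, in L3mbtl2 knockout (log2 fold change 0.52 ± 0.18, limma adjusted p = 0.04997; 0.051 to 0.244 without any 1 library not labelled Mga knockout). Gins4, the most abundant GINS subunit at 46.7, 47.3 and 47.9 FPKM in wild type, was 37.9, 38.7 and 45.3 in libraries labelled Mga knockout and fell there (log2 fold change -0.22 ± 0.08, limma adjusted p = 0.0489). That call ended without any 1 library other than the one labelled Mga knockout replicate 3 (0.0655 to 0.13). Gins2 passed in no comparison, and 67.3% of its exonic bases lie in exons of the neighbouring gene Gse1, so its reads are uncertain. The 4 GINS subunits, which sit in the complex in equal parts, ranged in wild type from a mean of 4.61 FPKM for Gins3 to 47.3 for Gins4. Cdc45, the partner of GINS on the ring, was 37.4, 38.8 and 38.7 FPKM in wild type and 33.4 and 33.1 in Pcgf6 knockout, which did not pass (log2 fold change -0.20 ± 0.07, limma adjusted p = 0.0883).

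**Figure D3:**
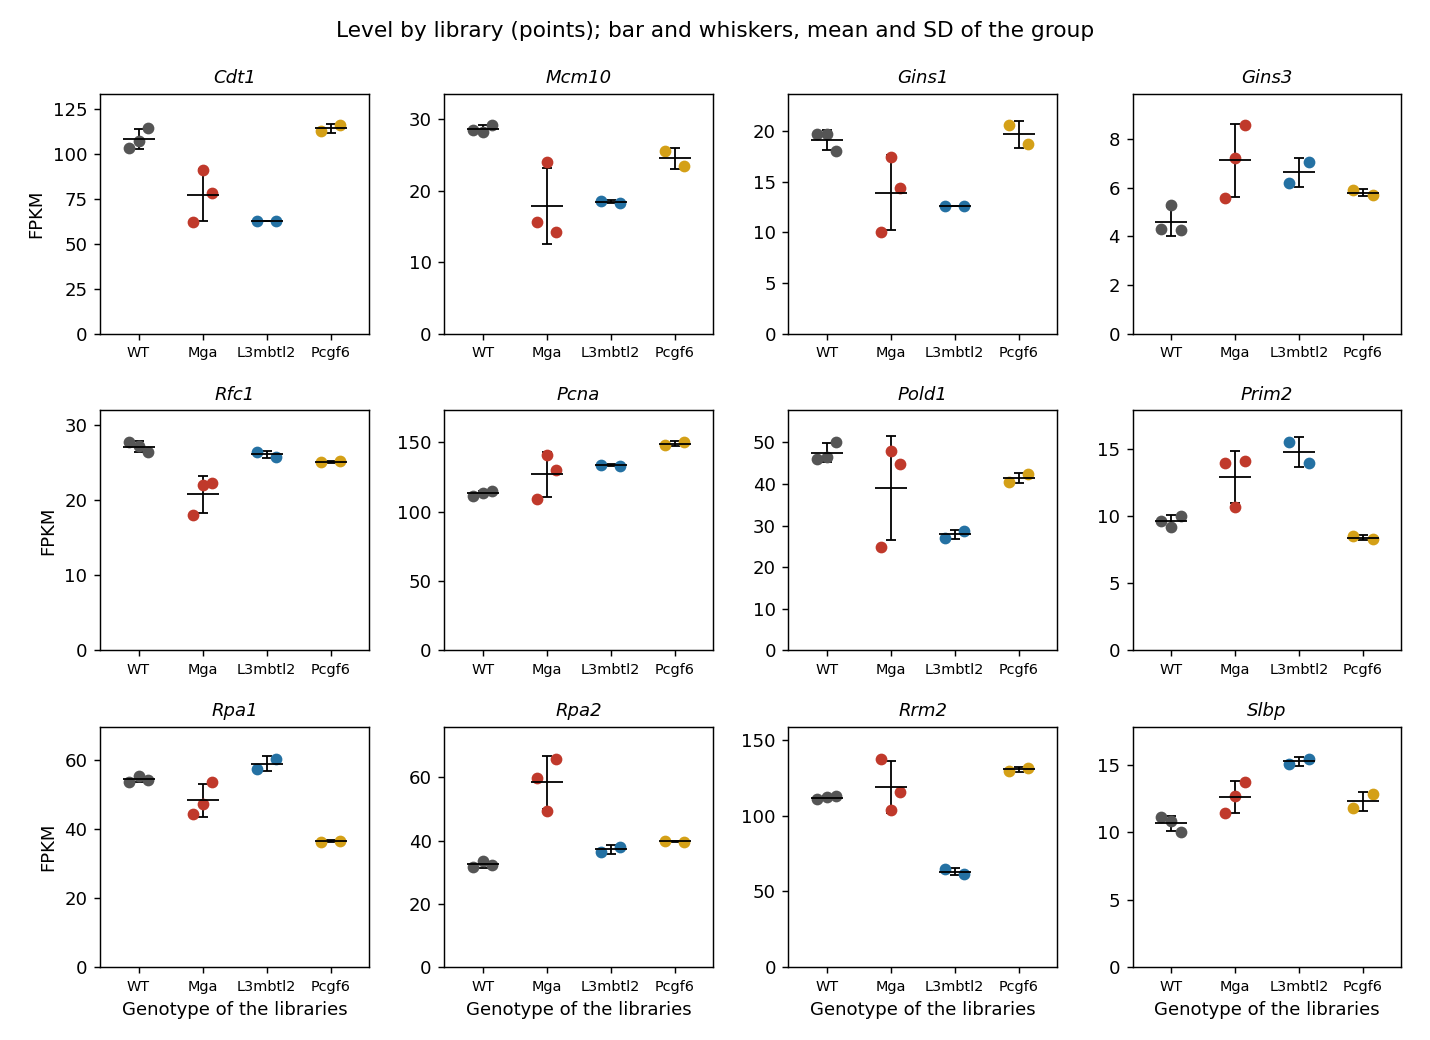
FPKM (y axis, from 0) of 12 replication genes in each library (points), by genotype (x axis), with the group mean and SD as bar and whiskers. Cdt1, Mcm10 and Gins1 are lower in libraries labelled Mga knockout and in L3mbtl2 knockout than in wild type, Rpa2 is higher in libraries labelled Mga knockout, Rrm2 and Pold1 are lowest in L3mbtl2 knockout apart from 1 library labelled Mga knockout for Pold1, and Rpa1 is lowest in Pcgf6 knockout.

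Pcna measured 111, 113 and 115 FPKM (wild type), 109, 141 and 130.1 (labelled Mga knockout), 134 and 133 (L3mbtl2 knockout) and 148 and 150.3 (Pcgf6 knockout). Pcna, the sliding clamp, was higher than in wild type in every library of L3mbtl2 and Pcgf6 knockout, and the libraries labelled Mga knockout overlapped with wild type. It rose in Pcgf6 knockout (log2 fold change 0.39 ± 0.10, limma adjusted p = 0.0421; 0.0814 to 0.245 without any 1 library not labelled Mga knockout) and did not pass in L3mbtl2 knockout (log2 fold change 0.23 ± 0.10, limma adjusted p = 0.095). Of the 5 RFC genes, whose products open the clamp and close it around DNA, 1 fell in Mga knockout and another in L3mbtl2 knockout. Rfc1 measured 27.8, 27.2 and 26.3 FPKM (wild type), 17.9, 22.03 and 22.2 (labelled Mga knockout), 26.4 and 25.8 (L3mbtl2 knockout) and 24.99 and 25.1 (Pcgf6 knockout). Rfc1, the large subunit of the loader, was below all other libraries in each library labelled Mga knockout and fell there (log2 fold change -0.39 ± 0.09, limma adjusted p = 0.00968). Rfc5, a small subunit, fell from 40.3, 40.97 and 41.8 FPKM in wild type to 33.5 and 34.5 in L3mbtl2 knockout (log2 fold change -0.27 ± 0.09, limma adjusted p = 0.0472; 0.0721 to 0.205 without any 1 library not labelled Mga knockout). Rfc2, Rfc3 and Rfc4 passed in no comparison with wild type, with log2 fold changes of -0.19 to 0.23 in Mga knockout, -0.08 to 0.06 in L3mbtl2 knockout and -0.25 to 0.25 in Pcgf6 knockout.

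Of the 6 polymerase and primase genes, 1 rose in Mga knockout and 1 rose and 1 fell in L3mbtl2 knockout. In Pcgf6 knockout 0 passed by limma (0 at an unadjusted p under 0.05). Pold1 measured 46.02, 46.4 and 50.2 FPKM (wild type), 24.7, 47.9 and 44.7 (labelled Mga knockout), 27.1 and 28.6 (L3mbtl2 knockout) and 40.5 and 42.4 (Pcgf6 knockout). Pold1, the catalytic subunit of polymerase delta, which copies the lagging strand, was lower in L3mbtl2 knockout than in any wild type library and fell there (log2 fold change -0.77 ± 0.24, limma adjusted p = 0.0325; 0.0518 to 0.151 without any 1 library not labelled Mga knockout). Among the libraries labelled Mga knockout only replicate 1 was low. Prim2 measured 9.64, 9.19 and 10.02 FPKM (wild type), 13.9, 10.7 and 14.1 (labelled Mga knockout), 15.5 and 13.96 (L3mbtl2 knockout) and 8.50 and 8.27 (Pcgf6 knockout). Prim2, the large subunit of primase, was above every wild type library in all libraries of both these knockouts and rose in Mga knockout (log2 fold change 0.41 ± 0.12, limma adjusted p = 0.0236; 0.0528 to 0.084 without any 1 wild type library or the library labelled Mga knockout replicate 3) and in L3mbtl2 knockout (log2 fold change 0.61 ± 0.13, limma adjusted p = 0.00684; 0.069 without L3mbtl2 knockout replicate 1). Prim2 also lies on chromosome 1, and centred on its median neither call held (log2 fold change 0.089 and -0.19).

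Its partner Prim1, the catalytic subunit of primase, passed in no comparison, and neither did Pola1 and Pola2 of polymerase alpha or Pole, the catalytic subunit of the leading-strand polymerase epsilon. Pola1 was 4.95, 4.74 and 4.46 FPKM in wild type and 4.31, 10.1 and 6.22 in libraries labelled Mga knockout, so replicate 2 there was the highest of all libraries and replicate 1 the lowest. Pole was likewise 13.1, 20.3 and 19.5 in libraries labelled Mga knockout around a wild type level of 14.7, 14.6 and 14.2. In L3mbtl2 knockout, where both libraries lay outside the wild type range, the log2 fold changes of these 4 genes ran from -0.34 to 0.42.

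The 3 subunits of RPA, the protein that covers single-stranded DNA as a heterotrimer, did not change together in Mga and Pcgf6 knockout. In L3mbtl2 knockout all 3 had log2 fold changes of 0.11 to 0.20, beside a median of 0.13 over all tested genes. There 0 passed by limma (0 at an unadjusted p under 0.05). Rpa2 measured 31.5, 33.5 and 32.4 FPKM (wild type), 59.8, 49.5 and 65.9 (labelled Mga knockout), 36.3 and 38.1 (L3mbtl2 knockout) and 39.9 and 39.7 (Pcgf6 knockout). Each library labelled Mga knockout was above all others, and Rpa2 rose (log2 fold change 0.84 ± 0.10, limma adjusted p = 0.000497). Rpa1 measured 53.7, 55.4 and 54.1 FPKM (wild type), 44.2, 47.2 and 53.5 (labelled Mga knockout), 57.3 and 60.4 (L3mbtl2 knockout) and 36.3 and 36.7 (Pcgf6 knockout). Rpa1, the large subunit, was lowest in both Pcgf6 knockout libraries and fell there (log2 fold change -0.58 ± 0.09, limma adjusted p = 0.0063; 0.0753 and 0.0764 without either Pcgf6 knockout library). Rpa3, the small subunit, passed in no comparison, at 20.6, 21.5 and 20.1 FPKM in wild type and 20.7 to 26.97 in the knockout libraries. The library labelled Mga knockout replicate 3 held the highest Rpa2 and replicate 2 the lowest of that group.

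Lig1, the ligase that seals Okazaki fragments, passed in no comparison with wild type. Lig1 measured 67.3, 70.3 and 68.8 FPKM (wild type), 45.9, 78.2 and 67.5 (labelled Mga knockout), 63.9 and 66.8 (L3mbtl2 knockout) and 85.3 and 87.6 (Pcgf6 knockout). The Pcgf6 knockout libraries were the highest of all, with a log2 fold change of 0.33 (95% interval -0.09 to 0.75). Fen1, the flap nuclease, cannot be read from these values. It was listed at 0.518 to 0.874 FPKM over the 10 libraries, from 30 to 51 reads. In GENCODE M21, 84.2% of its exonic bases (chromosome 19, 10199132 to 10204169, minus strand) lie in exons of the antisense gene Gm10143 (chromosome 19, 10198368 to 10202384, plus strand), which was itself listed at 0.262 to 0.783 FPKM. A kit without strand cannot tell such reads apart.

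Rrm2 measured 111, 112 and 113 FPKM (wild type), 138, 104 and 116 (labelled Mga knockout), 64.6 and 61.6 (L3mbtl2 knockout) and 129 and 132 (Pcgf6 knockout). Rrm2, the S phase subunit of ribonucleotide reductase, was in L3mbtl2 knockout near the middle of the distance from 0 to the wild type level, with both libraries far below all others. It fell there (log2 fold change -0.83 ± 0.11, limma adjusted p = 0.00075) and passed in neither Mga knockout (log2 fold change 0.08 ± 0.10, limma adjusted p = 0.547) nor Pcgf6 knockout (log2 fold change 0.22 ± 0.11, limma adjusted p = 0.233). Rrm1, the other subunit of the enzyme, and Tyms, thymidylate synthase, passed in no comparison. In L3mbtl2 knockout both lay below every wild type library (Rrm1 46.98 and 46.3 FPKM against 55.3, 54.01 and 52.1, Tyms 8.74 and 8.53 against 9.45, 9.90 and 9.53), with log2 fold changes of -0.20 and -0.15. Slbp measured 11.2, 10.8 and 10.1 FPKM (wild type), 11.4, 12.7 and 13.8 (labelled Mga knockout), 15.1 and 15.5 (L3mbtl2 knockout) and 11.8 and 12.8 (Pcgf6 knockout). Slbp, which binds the stem-loop of histone mRNAs in S phase, rose in L3mbtl2 knockout (log2 fold change 0.51 ± 0.10, limma adjusted p = 0.00504), with both libraries above all others. In Mga knockout every library was above wild type and the test was not passed (log2 fold change 0.24 ± 0.09, limma adjusted p = 0.0679).

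The differences between the knockouts were tested directly in the same fit. Mga and L3mbtl2 knockout differed at 10 of the 38 genes (5 higher and 5 lower in Mga knockout, against 22.8% of all genes, 10.9% higher and 12% lower), Mga and Pcgf6 knockout at 10 (6 and 4, against 22.6%, 12% and 10.6%), and L3mbtl2 and Pcgf6 knockout at 11 (5 and 6, against 30.5%, 16.6% and 13.9%). The 2 groups did not overlap at 16, 18 and 34 of the 38 genes in these comparisons, against 45.9%, 46.8% and 82.5% of all genes. Rrm2 was higher in Mga than in L3mbtl2 knockout (log2 fold change 0.90 ± 0.11, limma adjusted p = 0.000785) and lower in L3mbtl2 than in Pcgf6 knockout (log2 fold change -1.05 ± 0.12, limma adjusted p = 0.000719). Mcm3 was also higher in Mga than in L3mbtl2 knockout (log2 fold change 0.59 ± 0.10, limma adjusted p = 0.00396), and Cdc6 lower (log2 fold change -0.51 ± 0.08, limma adjusted p = 0.00214). In that comparison the median of chromosome 11, which holds Cdc6, was -0.34, and that of chromosome 1, which holds Mcm3, was -0.47. Mcm7 was lower in L3mbtl2 than in Pcgf6 knockout (log2 fold change -0.77 ± 0.08, limma adjusted p = 0.000567), as was Cdt1 (log2 fold change -0.86 ± 0.15, limma adjusted p = 0.00434).

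Mcm5 and Rpa2 were higher in Mga knockout than in both other knockouts. For Mcm5 the log2 differences were 0.54 and 0.55 (limma adjusted p = 0.0122 and 0.0129), and for Rpa2 0.64 and 0.54 (0.00485 and 0.0118). Rpa1 was lower in Pcgf6 knockout than in Mga knockout and L3mbtl2 knockout, with log2 differences of 0.40 and 0.69 in favour of the latter (limma adjusted p = 0.0137 and 0.00163). The medians of its chromosome 11 in these comparisons were 0.03 and 0.41. Prim2 and Mcm6 were likewise lowest in Pcgf6 knockout, by 0.60 and 0.33 against Mga knockout and by 0.80 and 0.72 against L3mbtl2 knockout (limma adjusted p between 0.0005 and 0.0136), without regard to the shift of their chromosome given below. Each of the 10 differences between Mga and Pcgf6 knockout was lost without either Pcgf6 knockout library (0 then passed by limma, 8 to 10 at an unadjusted p under 0.05), and 4 of the 10 between Mga and L3mbtl2 knockout and 6 of the 11 between L3mbtl2 and Pcgf6 knockout were kept without any 1 library. With only the 2 knockouts in the fit, 1 gene (background 3.77%), 0 (1.26%) and 28 (61.5%) passed by limma. In the comparison with 0, 8 genes had an unadjusted p under 0.05, and limma on all 10 libraries gave the 10 above.

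Position on a chromosome moved with several of these values. Over all tested genes of chromosome 1, the median log2 fold change was 0.30 in Mga knockout, 0.75 in L3mbtl2 knockout and 0.08 in Pcgf6 knockout. On chromosome 11 these medians were -0.23, 0.13 and -0.31, and on chromosome 16 -0.21, 0.03 and -0.30. Mcm3 (chromosome 1, 20802968 to 20820312), Mcm6 (chromosome 1, 128331590 to 128359664) and Prim2 (chromosome 1, 33453810 to 33669795) lie on chromosome 1. With each library centred on the chromosome medians, Mcm6 and Prim2 in L3mbtl2 knockout changed sign and neither passed (limma adjusted p = 0.353 and 0.275), so their rise was no larger than that of the chromosome. Mcm3, which fell against the direction of that chromosome, lay 1.10 below its median on the log2 scale. Mcm2 (chromosome 6) and Mcm6 in Mga knockout turned to -0.096 and -0.073 and no longer passed, and Rrm2 (chromosome 12), not called above, became a fall (log2 fold change -0.25, limma adjusted p = 0.0108).

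Cdc6 (chromosome 11, 98907801 to 98923940) and Rpa1 (chromosome 11, 75298166 to 75348324) lie on chromosome 11. The fall of Cdc6 in Mga knockout lay 0.07 below the chromosome median and the fall of Rpa1 in Pcgf6 knockout 0.27 below it, and neither passed once centred. The same held for Mcm4 (chromosome 16, 15623897 to 15637400) in Mga knockout. In Pcgf6 knockout Mcm4 then became a rise (log2 fold change 0.31, limma adjusted p = 0.0407). The changes of Mcm5, Cdt1, Gins3 (chromosome 8), Rpa2 (chromosome 4), Mcm10 (chromosome 2), Rfc1, Mcm7 and Slbp (chromosome 5) and Rrm2 in L3mbtl2 knockout kept their direction and their call. Prim2 in Mga knockout, Pold1 and Cdc6 in L3mbtl2 knockout and Pcna in Pcgf6 knockout kept their direction and lost the call (centred limma adjusted p = 0.566, 0.0593, 0.581 and 0.052). What moved whole chromosomes was not tested.

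**Figure D4:**
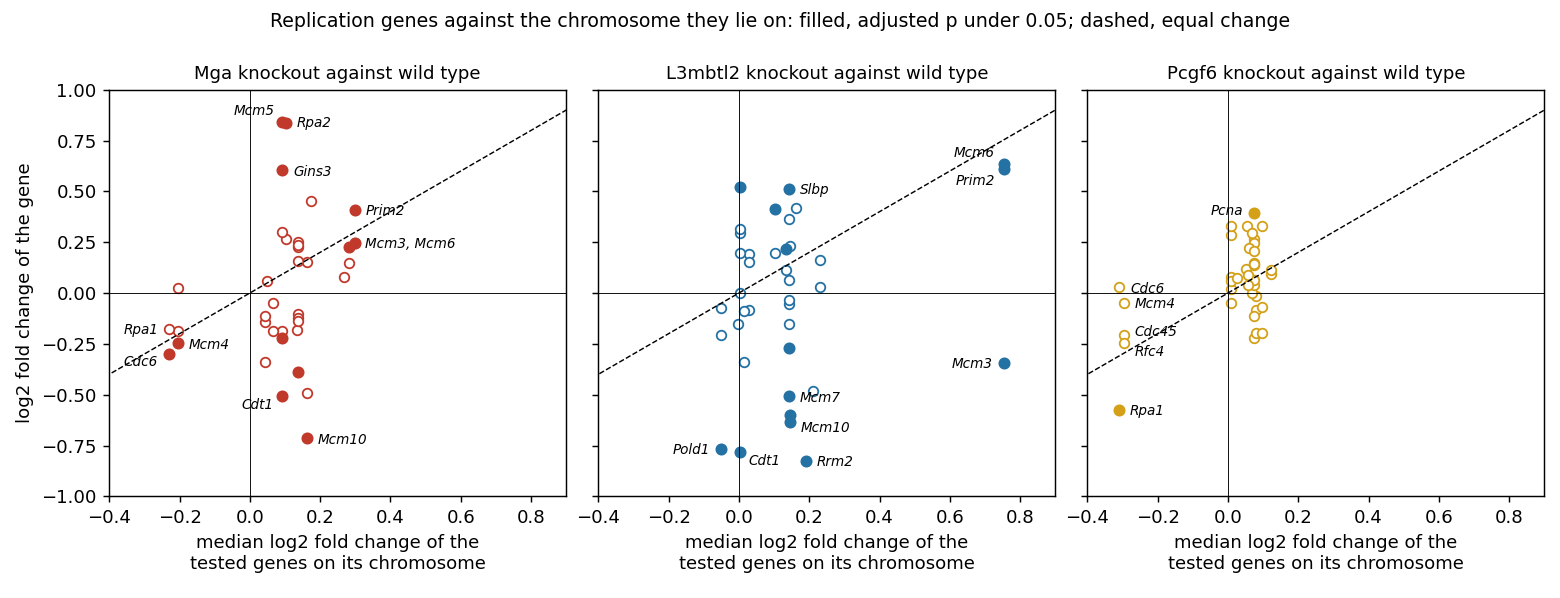
Log2 fold change of each replication gene (y axis) against the median log2 fold change of all tested genes on its chromosome (x axis), 1 panel per knockout against wild type. Filled points passed the test and the dashed line marks equal change. Mcm6 and Prim2 lie near the line at 0.75 in L3mbtl2 knockout while Mcm3 lies far below it, and Mcm5 and Rpa2 in Mga knockout lie far above it.

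Rises and falls were also mixed among other genes of the pathway. Of 38 further replication genes, 13 passed in Mga knockout (7 rose and 6 fell), 13 in L3mbtl2 knockout (9 rose and 4 fell) and 2 in Pcgf6 knockout (both rose), which is 34.2%, 34.2% and 5.26% of the list against 39.5%, 40% and 10.1% of all tested genes, with medians of 0.10, 0.17 and 0.06 beside 0.10, 0.13 and 0.04 over all. In Mga knockout Asf1b, a histone chaperone at the fork, rose (log2 fold change 1.27 ± 0.16, limma adjusted p = 0.000615), as did the nuclease Dna2 (log2 fold change 0.71 ± 0.09, limma adjusted p = 0.000681). Clspn, the fork's checkpoint adaptor claspin, fell (log2 fold change -0.90 ± 0.08, limma adjusted p = 9.64e-05), and Pold2 (chromosome 11), a small subunit of polymerase delta, fell (log2 fold change -0.70 ± 0.09, limma adjusted p = 0.000602). Pold2 fell by 0.69 in L3mbtl2 knockout as well (limma adjusted p = 0.00111), where the catalytic subunit Pold1 also fell. Dtl, which encodes the receptor that sends CDT1 to degradation, rose in L3mbtl2 knockout (log2 fold change 1.07 ± 0.13, limma adjusted p = 0.000612), and so did Orc2 (log2 fold change 0.89 ± 0.16, limma adjusted p = 0.00294), both on chromosome 1, and Wdhd1, which links the helicase to polymerase alpha (log2 fold change 0.72 ± 0.10, limma adjusted p = 0.000846). In Pcgf6 knockout Rnaseh2c, a subunit of the enzyme that removes RNA from DNA, and Pole3, a histone-fold subunit of polymerase epsilon, rose (log2 fold change 0.67 and 0.47, limma adjusted p = 0.00899 and 0.0384). Exons of other genes cover 29.8% of the exonic bases of Orc2 and 24.8% of those of Rnaseh2c.

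Of 24 further genes of nucleotide supply, 9 passed in Mga knockout (2 rose and 7 fell), 11 in L3mbtl2 knockout (4 rose and 7 fell) and 3 in Pcgf6 knockout (1 and 2), which is 37.5%, 45.8% and 12.5%, near the 39.5%, 40% and 10.1% of all genes, with medians of -0.14, -0.15 and 0.03. Gart measured 161, 161 and 164 FPKM (wild type), 79.7, 92.6 and 97.96 (labelled Mga knockout), 86.7 and 91.5 (L3mbtl2 knockout) and 109.8 and 112 (Pcgf6 knockout). Gart, an enzyme of purine synthesis on chromosome 16, was below wild type in every knockout library and fell in all 3 comparisons, which share the wild type libraries (log2 fold change -0.85, -0.86 and -0.54, limma adjusted p = 0.000159, 0.000283 and 0.00891). In L3mbtl2 knockout, beside Rrm2, thymidine kinase Tk1 fell (log2 fold change -1.44 ± 0.18, limma adjusted p = 0.000594) and so did Shmt1, which makes one-carbon units for thymidylate (log2 fold change -1.44 ± 0.17, limma adjusted p = 0.000542). Thymidylate kinase Dtymk rose there (log2 fold change 0.66 ± 0.10, limma adjusted p = 0.00127). Dtymk lies on chromosome 1, whose median in L3mbtl2 knockout was 0.75, so its rise was no larger than that of the chromosome. In Mga knockout Umps, of pyrimidine synthesis, fell (log2 fold change -0.47 ± 0.06, limma adjusted p = 0.000646), and so did Dguok, a mitochondrial deoxynucleoside kinase (log2 fold change -0.87 ± 0.16, limma adjusted p = 0.00366), and Nme1, a nucleoside diphosphate kinase (log2 fold change -0.54 ± 0.12, limma adjusted p = 0.00718). Umps lies on chromosome 16 and Nme1 on chromosome 11, whose medians in Mga knockout were -0.21 and -0.23. Dctpp1, which clears modified dCTP, rose in Pcgf6 knockout (log2 fold change 0.31 ± 0.08, limma adjusted p = 0.0431). Among 4 genes related to MCM by name or sequence but outside the ring, Mcm3ap rose in Mga and L3mbtl2 knockout (log2 fold change 0.39 and 0.59, limma adjusted p = 0.00342 and 0.000812). Mcmdc2 (chromosome 1), a gene of meiotic recombination, rose in L3mbtl2 knockout from 0.290, 0.190 and 0.235 FPKM to 1.54 and 1.28 (log2 fold change 2.16 ± 0.35, limma adjusted p = 0.002).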

How the data were processed

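The deposited values are FPKM per gene and library, made by the authors; per the submitters' processing notes, Bowtie2 2.2.3, TopHat2 2.0.12 and HTSeq 0.6.0 were used with GRCm38, and the sources used here do not give the scaling. The values move in whole-read steps, from which reads per gene (19370097 to 26726692 in all per library) were rebuilt. Symbols and positions came from GENCODE M21 and promoter windows from RefSeq (GRCm38.p6). Limma 3.58.1 (R 4.3.3) was fitted with a mean-expression trend to log2(FPKM + 0.1) of all 10 libraries, group as the only term, over the 15731 genes that reached 0.5 FPKM in 2 or more libraries. Fold changes are on that scale, which understates low genes, ± the standard error, with Benjamini-Hochberg adjusted p-values over all genes tested and a threshold of 0.05. The procedure was run on simulated data with the same spread in every group. Here the libraries labelled Mga knockout spread more over all genes (median SD 0.34, log2) than wild type (0.09), L3mbtl2 knockout (0.06) and Pcgf6 knockout (0.07). The simulated run does not cover that difference. The 38 genes and the other lists were chosen with earlier results of these data known. Values per library are given for the targeted genes, for up to 8 called members with the largest change per comparison with wild type, for the highest member of each role and, chosen after their values were seen, for other members of the complexes; up to 4 genes of each further list with the smallest p are named, and some are not reported here. Alternatives were pseudocounts of 1 and 0.01, other filters, scalings and spreads, a replicate block, limma-voom on the rebuilt reads, centring on chromosome medians and leaving out each library.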

Additional observations from a re-analysis of the deposited data

How the results depend on the processing

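Of 4782 values of single replication genes recomputed under the 21 alternatives, 4299 kept their side of the threshold, 281 lost the call, 192 gained it and 10 changed sign while called in at least 1 of the fits. Another 125, among the 4299, changed sign without a call in either fit. Calls that passed under all 21 were 5 of 12 in Mga knockout, 4 of 14 in L3mbtl2 knockout and 0 of 2 in Pcgf6 knockout against wild type, and 1 of 10 (Mga against L3mbtl2 knockout), 0 of 10 (Mga against Pcgf6 knockout) and 3 of 11 (L3mbtl2 against Pcgf6 knockout) between knockouts. In that order of 6 comparisons, fitting only the groups compared gave 6, 30, 20, 1, 0 and 28 genes, because the spread was then not shared with the other groups. No filter on low values gave 8 in L3mbtl2 knockout, 1 in Pcgf6 knockout and 7 in L3mbtl2 against Pcgf6 knockout. No mean-expression trend gave 7, 1 and 7 there, and centring on chromosome medians gave 1 in Pcgf6 knockout. Leaving out 1 library in turn gave 7 to 20, 5 to 22, 0 to 8, 4 to 18, 0 to 21 and 6 to 24, each from fewer libraries. The shares of all tested genes are given above only for the main fit and for the fits of only the groups compared. The counts under every other alternative, here and in the next paragraph, have no background beside them. They are not read as results about replication genes. Where no construction of the alternative shows it, the cause was not tested.

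With the replicate number as a block, 11, 8, 1, 8, 9 and 8 genes passed. Same-numbered libraries did not deviate together over all tested genes (correlation -0.02 to 0.03 across genes, which are not independent replicates). In a group of 2 libraries the deviations mirror each other, so their correlations are not separate. What the replicate numbers stand for is not given, and a shared batch was not tested. The split of rises to falls moved with scaling: median-of-ratios factors gave 4 and 8 in Mga, 3 and 9 in L3mbtl2 and 0 and 2 in Pcgf6 knockout, upper-quartile scaling 3 and 9 in L3mbtl2 knockout, and chromosome centring 4 and 8 in Mga, 4 and 8 in L3mbtl2 and 2 and 11 in Mga against Pcgf6 knockout. Centring changed the sign of 37 values called neither before nor after it and of 10 that were called in at least 1 of the fits. The 10 were, in Mga knockout Mcm2 (-0.096), Mcm6 (-0.073) and Rrm2 (-0.25); in L3mbtl2 knockout Mcm6 (-0.16) and Prim2 (-0.19); in Pcgf6 knockout Mcm4 (0.31); in Mga against L3mbtl2 knockout Mcm6 (0.088) and Rpa1 (0.051); and in L3mbtl2 against Pcgf6 knockout Mcm4 (-0.15) and Cdc45 (-0.032). Fen1 held the fewest reads, 30 to 51, and the other replication genes held at least 248 reads per library. Overlap with exons of other genes, given above, limits Fen1 and Gins2 apart from depth.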

Other observations

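Genes of mitosis and of the replication checkpoint and repair were read beside the replication genes. Of 30 mitosis genes, 6 passed in Mga knockout (1 rose and 5 fell), 9 in L3mbtl2 knockout (7 rose and 2 fell) and 1 in Pcgf6 knockout (a fall), which is 20%, 30% and 3.33% against 39.5%, 40% and 10.1% of all tested genes, with medians of -0.10, 0.00 and -0.03 beside 0.10, 0.13 and 0.04 over all. Each share was below that of all genes. In Mga knockout Mad2l1, a spindle checkpoint gene, was 4.35, 4.32 and 5.46 FPKM against 9.21, 9.05 and 8.34 in wild type and fell (log2 fold change -0.91 ± 0.11, limma adjusted p = 0.000461). In L3mbtl2 knockout Mad2l1 rose instead, to 12.1 and 12.5 FPKM (log2 fold change 0.47 ± 0.12, limma adjusted p = 0.0146). Aurkb, the kinase of the chromosomal passenger complex, fell in Mga and Pcgf6 knockout (log2 fold change -0.64 and -0.52, limma adjusted p = 0.000317 and 0.00605), and Birc5, another member of that complex, and Top2a, which is in both this list and that of further replication genes, fell in Mga knockout (log2 fold change -0.47 and -0.58, limma adjusted p = 0.012 and 0.00106). All 3 lie on chromosome 11, whose median was -0.23 in Mga knockout and -0.31 in Pcgf6 knockout. The kinetochore genes Nuf2 and Cenpf, both on chromosome 1, rose in L3mbtl2 knockout (log2 fold change 1.03 and 0.87, limma adjusted p = 0.000329 and 0.000461).

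Of 22 checkpoint and repair genes, 21 were tested. In Mga knockout 4 passed (3 rose and 1 fell), in L3mbtl2 knockout 10 (9 rose and 1 fell) and in Pcgf6 knockout 0 by limma (2 at an unadjusted p under 0.05). These are 19.0%, 47.6% and 0% of the list beside 39.5%, 40% and 10.1% of all tested genes, with medians of -0.06, 0.39 and 0.04 beside 0.10, 0.13 and 0.04. Fancd2 measured 10.1, 10.2 and 10.3 FPKM (wild type), 11.8, 10.6 and 8.78 (labelled Mga knockout), 31.3 and 29.9 (L3mbtl2 knockout) and 9.99 and 9.997 (Pcgf6 knockout). Fancd2, a central gene of interstrand crosslink repair, rose in L3mbtl2 knockout (log2 fold change 1.57 ± 0.12, limma adjusted p = 6.49e-05), and the other groups lay around the wild type level. The exonuclease Exo1 (chromosome 1) and the mismatch repair gene Msh6 also rose there (log2 fold change 1.02 and 0.45, limma adjusted p = 0.000903 and 0.00319). In Mga knockout the checkpoint kinase gene Atr rose (log2 fold change 0.72 ± 0.13, limma adjusted p = 0.00332), as did Cdkn1a, which encodes the cell cycle inhibitor p21 (log2 fold change 0.78 ± 0.15, limma adjusted p = 0.00482), and Brca1 (chromosome 11) fell (log2 fold change -0.72 ± 0.16, limma adjusted p = 0.00852). Cdkn1a was 86.3, 53.9 and 79.3 FPKM in libraries labelled Mga knockout against 40.8, 42.4 and 42.4 in wild type, lowest in the library labelled replicate 2.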
